A study of Mus musculus with 7 samples.

Results

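Non-polyadenylated small RNAs and nuclear long RNAs were followed gene by gene in whole fetal testes. They can be seen in these RNA-Seq libraries because ribosomal RNA was removed and RNA without a poly-A tail was kept. The 8 genes named for this were *Rpph1*, *Rmrp*, *Rn7sk*, *Terc*, *Rny1*, *Rny3*, *Malat1* and *Neat1*, and each was looked up by symbol and by gene ID in the gene table. Of the 8, 5 had a row among its 24739 rows (*Rpph1*, *Rmrp*, *Terc*, *Malat1* and *Neat1*), and no row carried *Rn7sk*, *Rny1* or *Rny3* in the table used here. The genes were selected on their levels and spread in these same libraries, with earlier results known, so their levels and spread are given as a description with no test.

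All embryos were of C57BL/6 background at embryonic day 14.5, 3 labelled wild-type (WT replicates 1 to 3) and 4 homozygous for the global *Glis3* zf5 null allele (mutant replicates 1 to 4), with no treatment and 1 pair of testes per library. Whole testes hold germ, Sertoli, Leydig and other cells, and in such bulk samples fewer cells of a type and less RNA per cell cannot be told apart. Gene values are FPKM (fragments per unit of transcript length, scaled to the library), made by the authors on RefSeq models of mm10, and fold changes are mutant against WT on log2(FPKM + 0.5), a scale that understates changes of low genes. Reads of single LINE, SINE and LTR repeat copies, called loci here, came from a separate count table. The number of fragments behind an FPKM value is unknown, whereas 3454317 to 4670830 reads per library were counted in the repeat table. *Glis3*, a zinc finger transcription factor, was at 7.63, 6.89 and 2.91 FPKM in the libraries labelled WT replicates 1, 2 and 3, and at 2.66 to 3.86 in the mutants, so the library labelled WT replicate 3 lay within the mutant range. The 8 germ cell markers summed to 584 to 1335 FPKM in WT and 474 to 621 in mutant testes, and the 6 Sertoli cell markers to 229 to 351 and 300.03 to 364.

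RNase P RNA (*Rpph1*) is the catalytic subunit of the enzyme that trims the 5′ ends of tRNA precursors. RNase MRP RNA (*Rmrp*) belongs to a related nucleolar enzyme that cleaves ribosomal RNA precursors and shares most protein subunits with RNase P. 7SK RNA (*Rn7sk*) holds the elongation kinase P-TEFb inactive, Y RNAs (*Rny1*, *Rny3*) bind the Ro and La proteins, and these short RNAs are all made by RNA polymerase III. *Terc*, the template RNA of telomerase, and the long nuclear RNAs *Malat1* (nuclear speckles) and *Neat1* (the scaffold of paraspeckles) are made by polymerase II.

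*Rpph1* lies at chr14:50807447-50807771 on the minus strand (mm10). The stretch below (chr14:50807468-50807617, bases 151 to 300 of the 319-base GENCODE transcript) is shown because it holds the repeat locus whose reads are described further on. Capitals mark the bases annotated as MMVL30-int, an internal fragment of a VL30-type LTR retrotransposon, in the opposite orientation to the gene.
Rpph1: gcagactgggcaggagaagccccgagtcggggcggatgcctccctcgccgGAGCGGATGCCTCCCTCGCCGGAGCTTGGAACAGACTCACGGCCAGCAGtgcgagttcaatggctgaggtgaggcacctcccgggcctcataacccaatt
Within it a unit of 21 bases stands 2 times in direct succession, at bases 182 to 202 and 203 to 223 of the transcript. The unit reads as follows.
repeated unit: gcggatgcctccctcgccgga
The annotated element spans bases 201 to 249, so all 21 bases of the second unit lie inside it. The genome carries 3 further RNase P RNA-like genes with rows in the gene table, *Rprl1*, *Rprl2* and *Rprl3*. Aligned to *Rpph1*, *Rprl3* was identical at 246 of 284 aligned bases (86.6%), *Rprl2* at 245 of 284 and *Rprl1* at 239 of 285. The longest gap in each of the 3 copies was 21 bases. Within the element, 47 of its 49 bases had a partner in *Rprl3*, of which 45 were identical.

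*Rmrp* and *Rpph1* had the highest and second highest FPKM of all genes in every library. *Rmrp* (chr4:43492785-43493059) was at 175167, 290120 and 280402 FPKM in WT replicates 1 to 3 and at 251422, 234894, 320022 and 281103 in mutant replicates 1 to 4. WT replicate 1 was the lowest and mutant replicate 3 the highest, a range of 1.83-fold, and the groups overlapped. *Rpph1* was at 42714, 159008 and 145711 FPKM in WT and at 58978, 13629.5, 174222 and 172125 in mutant testes. Mutant replicate 2 was the lowest, WT replicate 1 and mutant replicate 1 were intermediate, and the other 4 libraries lay close together, so that the range of 12.8-fold ran across both genotypes. The third gene by mean FPKM, the small Cajal body RNA *Scarna13*, averaged 7417 FPKM.

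**Figure D1:**
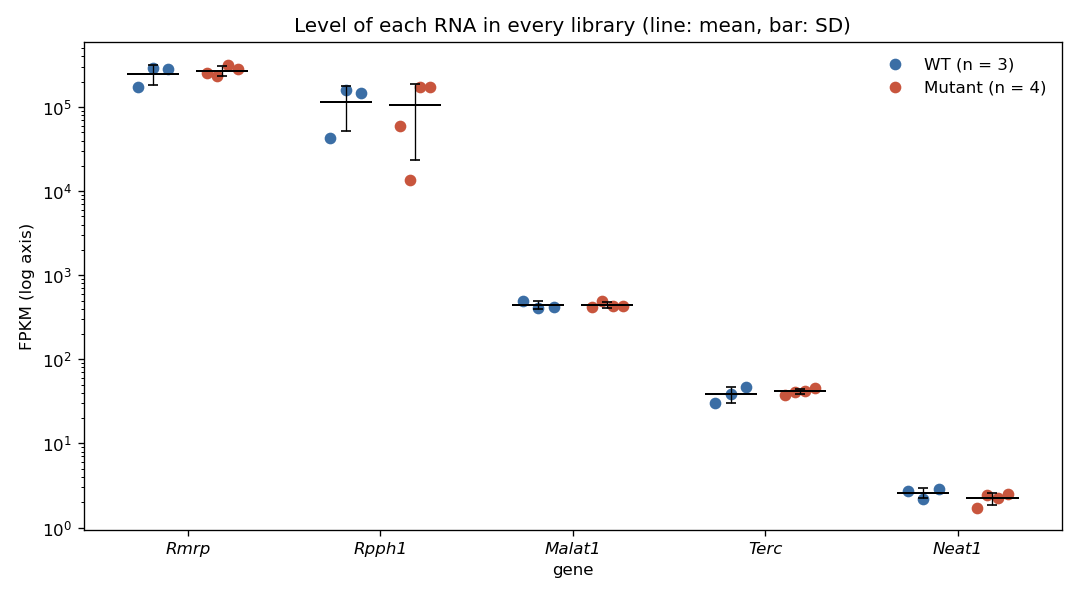
FPKM (log axis) of the 5 RNAs with a row in the gene table, 1 point per library, with group mean and SD for 3 WT and 4 mutant libraries. *Rpph1* runs from 13629.5 to 174222 FPKM, with low and high libraries in both groups, while *Malat1* stays between 407 and 495.

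Neither RNA differed between genotypes beyond the spread of the libraries. *Rmrp* averaged 248563 ± 63748 FPKM in WT (SD, n = 3) and 271860 ± 37369 in mutants (SD, n = 4), with a log2 fold change of 0.16 (limma, standard error 0.83, adjusted p = 0.941). The limma standard error of *Rmrp* follows a variance trend over expression with few genes at this height, and without that trend it was 0.19 (adjusted p = 0.713). For *Rpph1* the means were 115811 ± 63652 FPKM in WT (SD, n = 3) and 104739 ± 81166 in mutants (SD, n = 4), with a log2 fold change of -0.51 (95% confidence interval -2.78 to 1.76, limma adjusted p = 0.829). The exact two-sided permutation test over the 35 assignments of the libraries, which cannot give a p-value below 0.0286, gave 0.6 for *Rmrp* and 0.714 for *Rpph1*. Without mutant replicate 2 the log2 fold change of *Rpph1* was 0.28, and without WT replicate 1 that of *Rmrp* was -0.08.

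The spread of *Rpph1* lay inside the groups. Its pooled SD within groups was 1.503 on the log2 scale, above that of 99.7% of the 13988 genes tested and of 99.8% of the 7240 genes that averaged 10 FPKM or more. The SD within the groups was 0.30 for *Rmrp*, above 90.2% of the genes tested, and the median gene had 0.13. Among the 58 genes tested with the highest mean FPKM, the median SD was 0.22, and about 10% of them lay above 0.53. The spread of *Rmrp* was thus not unusual for genes of such high level. Within a library, *Rpph1* was 0.244, 0.548 and 0.520 times *Rmrp* in WT replicates 1 to 3 and 0.235, 0.0580, 0.544 and 0.612 times in mutant replicates 1 to 4. As for *Rpph1* itself, mutant replicate 2 was lowest, WT replicate 1 and mutant replicate 1 were intermediate and the other 4 libraries were highest.

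**Figure D2:**
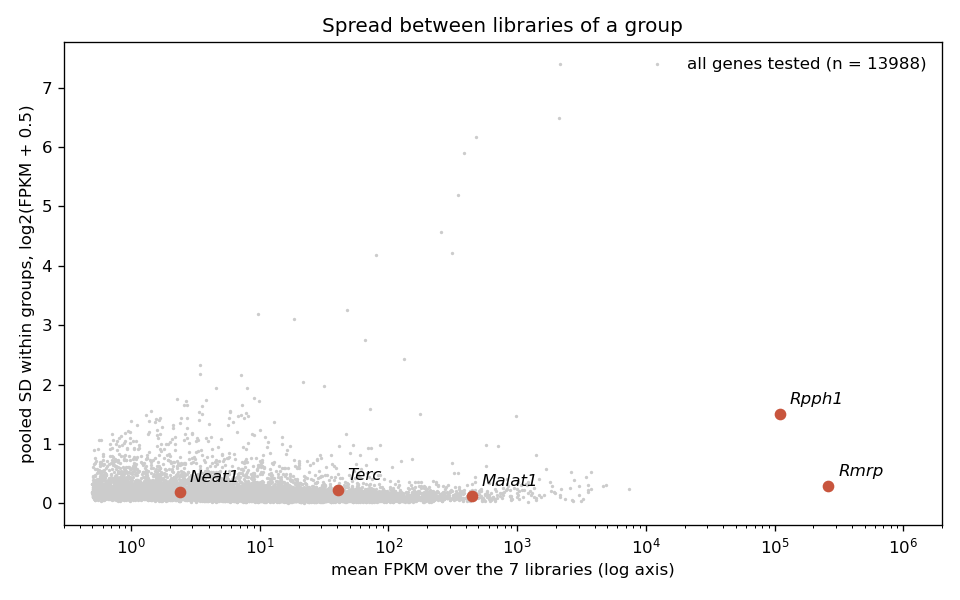
Pooled SD within groups of log2(FPKM + 0.5) against mean FPKM over the 7 libraries (log axis), with 1 grey point for each of the 13988 genes tested and the 5 RNAs in red. *Rpph1* stands at an SD of 1.503, and the other 4 RNAs lie between 0.12 and 0.30.

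The repeat table, which counts uniquely mapped reads by another route, separated the same libraries at *Rpph1*. The MMVL30-int locus inside the gene (chr14:50807519-50807567, 49 bases) had 68673, 257661 and 252005 reads in WT replicates 1 to 3 and 77262, 2486, 261959 and 263183 in mutant replicates 1 to 4. It again had 4 high libraries, 2 intermediate ones and mutant replicate 2 far below, over a range of 106-fold in reads. This was the most read of all loci in the table, with 1183229 reads in all, 4.34 times those of the next. It took between 0.0720% of all repeat reads in mutant replicate 2 and 7.02% in mutant replicate 3. The 95% Wilson interval in mutant replicate 2 was 0.0692 to 0.0749%, which covers counting error only.

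Reads of the locus per 1000000 repeat reads, divided by the FPKM of *Rpph1*, came to 0.344 to 0.421 in 6 libraries and 0.0528 in mutant replicate 2. In that library the locus was thus lower than the FPKM of the whole gene would give at the ratio of the other libraries. The locus did not differ between genotypes in the edgeR quasi-likelihood test (log2 fold change -0.16, adjusted p = 0.977), and an exact permutation test on its log2 CPM (counts scaled by TMM library size) gave p = 0.8. The edgeR value at this locus moved with the libraries and the scaling: it passed the threshold of 0.1 in 4 of 15 fits, with adjusted p = 2.99e-11 without mutant replicate 3, 0.00374 without WT replicate 1, 0.0348 without mutant replicate 4 and 0.0529 with library size alone.

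The reads of the locus set the level of its repeat element as a whole. The other 536 MMVL30-int loci with a read had 3126 to 3801 reads together in each library. With the *Rpph1* locus included, the element summed to 5947 reads in mutant replicate 2 and to 72456 to 266984 in the other libraries, and the locus held 41.8% of the reads of the element in mutant replicate 2 and up to 98.8% elsewhere. On the CPM scale the element averaged 51723 ± 31958 in WT (SD, n = 3) and 46431 ± 40373 in mutants (SD, n = 4) with the locus. Without it WT averaged 907 ± 166 (SD, n = 3) and mutants 1014 ± 65.6 (SD, n = 4), with overlapping groups and p = 0.286 in the exact permutation test.

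The RNase P RNA copies were far below *Rpph1*. *Rprl3* (chr8:3803125-3803361) was at 6.74 FPKM in WT replicate 1, 4.52 in mutant replicate 1 and 12.7 in mutant replicate 2, and was listed at 0 in the other 4 libraries. Its 3 libraries above 0 were the 3 lowest for *Rpph1*, with the highest *Rprl3* value in the library that was lowest for *Rpph1*. *Rprl1* and *Rprl2* were listed at 0 in all libraries. The 3 copies were looked at after their values had been seen, and how the authors' counting split reads between such similar genes was not tested.

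**Figure D3:**
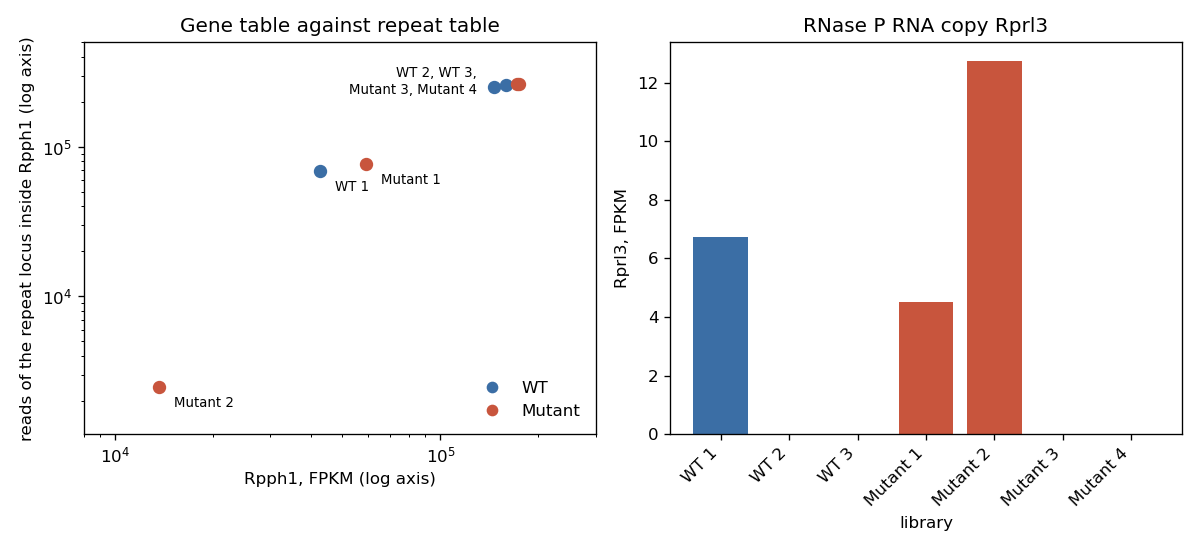
Left, reads of the MMVL30-int locus inside *Rpph1* against *Rpph1* FPKM, both on log axes, 1 point per library; right, FPKM of the copy *Rprl3* in each library as bars. The libraries fall in the same order in both tables at *Rpph1* apart from small differences among the 4 highest, and *Rprl3* is above 0 in WT replicate 1 and mutant replicates 1 and 2.

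*Rpph1* and *Parp2*, which encodes a poly(ADP-ribose) polymerase of DNA repair, start head to head, 149 bases apart by the GENCODE start of *Rpph1* and the RefSeq start of *Parp2*. The sequence before *Rpph1* (chr14:50807768-50807965, minus strand, from the RefSeq promoter table of GRCm38.p6) is shown because the genes on both sides of it were measured. Capitals mark ATGCAAAT, the octamer bound by POU factors such as Oct-1 and known from promoters of this kind.
upstream of Rpph1: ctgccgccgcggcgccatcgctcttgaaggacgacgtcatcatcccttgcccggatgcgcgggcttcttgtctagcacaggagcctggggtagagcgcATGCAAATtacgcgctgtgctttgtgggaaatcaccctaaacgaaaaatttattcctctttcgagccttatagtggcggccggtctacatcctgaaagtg
The octamer ends 92 bases before the start of *Rpph1*, and on either strand it occurs in 570 of 32851 promoter windows of 300 bases (1.74%). TATAA was also found once on either strand of the 198 bases, and 24.9% of all windows hold it. These matches describe the letters only.

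*Parp2* was at 43.8, 38.1 and 36.4 FPKM in WT and at 38.6, 47.5, 34.1 and 34.6 in mutant testes, highest in mutant replicate 2 and in WT replicate 1, where *Rpph1* was lowest. Its log2 fold change was -0.03 (limma adjusted p = 0.912). On the other side, *Ccnb1ip1*, which encodes a ubiquitin ligase of meiotic crossing over, was at 7.68, 5.99 and 1.32 FPKM in WT and 4.37, 5.85, 1.39 and 1.19 in mutants. It was low in 3 libraries of both genotypes that were all high for *Rpph1*, while WT replicate 2 was high for both genes.

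Among the 11 genes tested within 1000000 bases of *Rpph1*, 3 had an absolute Pearson r with *Rpph1* of at least 0.9 over the 7 libraries, against 1.35% of 13976 genes elsewhere. They were *Parp2* (r = -0.94), *Osgep* (r = 0.94), which encodes a tRNA-modifying enzyme, and *Ang* (r = 0.99), which encodes angiogenin, a secreted RNase. *Osgep* was at 28.3, 39.5 and 38.7 FPKM in WT and at 26.2, 14.7, 34.2 and 33.3 in mutants. *Ang* was at 0.956, 2.92 and 3.003 FPKM in WT and 1.36, 0.258, 2.86 and 4.14 in mutants. Both were lowest in mutant replicate 2 and next lowest in mutant replicate 1 or WT replicate 1. Each r rests on 7 libraries that fall into a high, an intermediate and a single low position for *Rpph1*, and is given as a description. For *Rmrp* the same count was 0 of 30 genes, beside 2.06% elsewhere, and for *Terc* 3 of 51 (5.88%), beside 2.55%. For *Malat1* it was 1 of 78 (1.28%), beside 0.582%, and for *Neat1* 0 of 76, beside 0.288%.

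**Figure D4:**
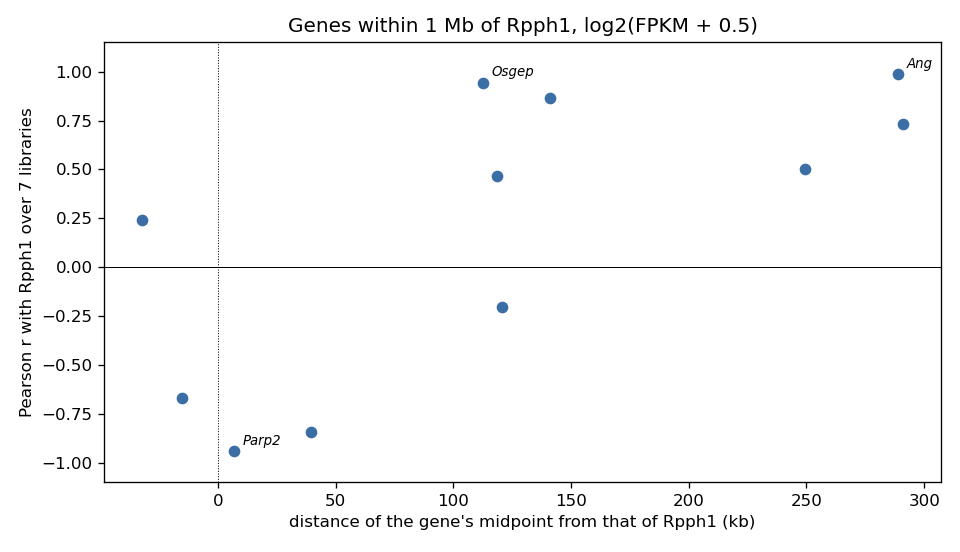
Pearson r with *Rpph1* of log2(FPKM + 0.5) over the 7 libraries for the 11 genes tested within 1 Mb, against the distance of gene midpoints in kb. *Ang* and *Osgep* lie at 0.99 and 0.94, and the head-to-head neighbour *Parp2* at -0.94.

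*Mrpl11* (a mitochondrial ribosomal protein), *Ang* and *Dmc1* (a meiotic recombinase) were the 3 genes whose pattern over the 7 libraries was most like that of *Rpph1*, with r = 0.99, 0.99 and 0.96. *Mrpl11* moved over a narrow range, from 30.5 FPKM in mutant replicate 2 to 36.1 in mutant replicate 3. Among those most like *Rmrp* were *Nudcd2* (r = 0.99) and *Ifngr2* (r = 0.98), and *Ifngr2*, a receptor subunit for interferon gamma, ran from 18.9 FPKM in WT replicate 1 to 43.4 in mutant replicate 3. *Rpph1* and *Rmrp* themselves had r = 0.68.

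Proteins of RNase P and RNase MRP were measured for all 11 genes listed. None passed the adjusted threshold, beside 0.00715% of all genes tested (1 of 13988). At an unadjusted p under 0.05, 3 of the 11 (*Pop1*, *Pop5* and *Rpp38*) were lower in mutants and 0 higher, where 8.79% of all genes tested were lower and 8.21% higher. *Pop1*, the largest subunit, was at 14.04, 23.9 and 17.5 FPKM in WT and 9.86, 8.05, 14.8 and 14.5 in mutants, with overlapping groups (log2 fold change -0.64, limma adjusted p = 0.245). *Rpp25* had the largest value of the list, 0.08 (limma adjusted p = 0.782).

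*Pop4*, which encodes a subunit at the core of both enzymes and was singled out after its values were seen, was at 54.8, 110.6 and 100.5 FPKM in WT and 66.8, 60.8, 104.5 and 108.1 in mutants. WT replicate 1 and mutant replicates 1 and 2, the libraries lowest for *Rpph1*, were also the 3 lowest for *Pop4* (r = 0.89 with *Rpph1* and 0.88 with *Rmrp*). *Rpp21*, also singled out afterwards, ran the other way, with 36.6 FPKM in mutant replicate 2 and 24.9 in mutant replicate 3 (r = -0.95 with *Rpph1*). The other 9 proteins had r between -0.69 and 0.79 with *Rpph1*.

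These RNAs weighed on the sum of FPKM, most of all the short *Rpph1* and *Rmrp*. FPKM includes a correction for length, so a share of this sum is not a share of reads. *Rpph1* and *Rmrp* together made up 31.4 to 48.5% of the summed FPKM of a library, *Rmrp* alone 25.2 to 31.4% and *Rpph1* alone 1.75 to 17.3%. The sum over all genes ran from 694243 FPKM in WT replicate 1 to 1018678 in mutant replicate 3, a range of 1.47-fold. Without the 2 genes it ran from 476362 to 542062, a range of 1.14-fold. Their combined share was 40.9 ± 8.36% in WT (SD, n = 3) and 40.8 ± 7.57% in mutants (SD, n = 4), with p = 1 in the exact permutation test. When each library was scaled to an equal sum of FPKM, 47 genes passed the adjusted threshold, and when it was scaled to an equal sum without these RNAs, 2 did.

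**Figure D5:**
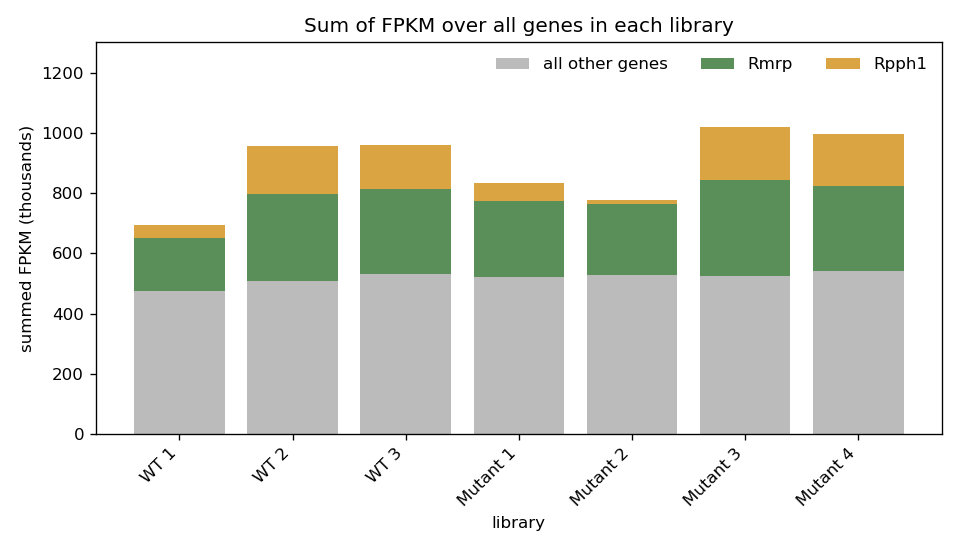
Summed FPKM of each library on a linear axis, stacked bars from 0, split into all other genes, *Rmrp* and *Rpph1*. The other genes sum to 476362 to 542062 in all libraries, and most of the difference between bars is in the upper 2 segments.

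Other short genes also differed between libraries. The 72 genes with a span of at most 500 bases, these RNAs left out, had a median deviation from their own mean of -0.45 on the log2 scale in WT replicate 1, -0.21 in WT replicate 2 and 0.14 in WT replicate 3. In mutants it was 0.09 to 0.23, and the exact permutation test gave p = 0.0571. WT replicate 1, the lowest library for *Rmrp* and *Terc*, was thus also lowest for short genes as a class, and the part of this in their values was not tested.

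*Terc* (chr3:96414437-96414833) was at 29.97, 39.0 and 46.9 FPKM in WT and 37.8, 40.7, 42.1 and 45.8 in mutants. The WT libraries held both the lowest and the highest value, and the mutants lay between them. Its log2 fold change was 0.13 (standard error 0.14, limma adjusted p = 0.676), and without WT replicate 1 it was -0.04. Its pooled SD within groups was 0.22, above 81.4% of the genes tested. The genes most like *Terc* were *Pcna*, the sliding clamp of DNA replication, *Ggt1* and *Timm17a* (r = 0.99, 0.98 and 0.98).

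Telomerase proteins were measured for 7 of 7 genes, and none passed the adjusted threshold. *Tert*, the catalytic subunit, was at 3.18, 2.03 and 2.65 FPKM in WT and 2.48 to 2.75 in mutants (log2 fold change 0.01, limma adjusted p = 0.933). At an unadjusted p under 0.05, *Wrap53*, which carries the RNA to Cajal bodies, and *Nhp2*, a protein of H/ACA particles, were lower in mutants. Of all genes tested, 8.79% were lower by this rule, and 14.9% had groups that did not overlap. *Wrap53* was at 15.4, 13.5 and 13.4 FPKM in WT and 11.2, 11.2, 12.7 and 11.3 in mutants, with no overlap (log2 fold change -0.27, limma adjusted p = 0.186). The largest value of the list was that of *Naf1*, 0.15 (limma adjusted p = 0.565).

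*Rn7sk*, *Rny1* and *Rny3* were not analysed here as genes, since no row carried them. RefSeq (GRCm38.p6) places them at chr9:78175302-78175633, chr6:47788070-47788180 and chr6:47781624-47781724. The repeat counts cover LINE, SINE and LTR elements only, and no locus of these classes lay inside *Rn7sk*, *Rny1*, *Rny3*, *Rmrp* or *Terc*. Among the short genes that the table does list, 1071 with a span of 1 to 100 bases were at 0 in every library, and 18 of 271 with 101 to 200 bases, 5 of 10 with 201 to 300 and 71 of 101 with 301 to 500 were above 0 in at least 1 library. Of the other polymerase III RNAs with a row, *Rnu6* (the U6 spliceosomal RNA), *Bc1* and *Rn4.5s* were listed at 0 throughout. The *Rnu6* row covers only chr19:14438480-14438506, and the *Bc1* rows reach over chr10:79697305-80369637 and chrX:162407200-163352564. Zeros of such rows do not give the level of these RNAs. *Vaultrc5*, a vault RNA, was at 8.60, 10.8 and 7.18 FPKM in WT and 9.67, 10.99, 13.6 and 10.7 in mutants (log2 fold change 0.34, limma adjusted p = 0.3). The remaining 6 of the 10 RNAs listed had no row in the table used here.

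The proteins that bind 7SK and Y RNAs were all measured. Of 7 genes for the 7SK particle and P-TEFb none passed the adjusted threshold. *Ccnt1* (cyclin T1 of P-TEFb) and *Larp7* (the 7SK-binding La-related protein) were lower in mutants at an unadjusted p under 0.05, beside 8.79% of all genes tested. Groups did not overlap for 14.9% of all genes tested. *Ccnt1* was at 23.8, 24.5 and 22.0 FPKM in WT and 20.8, 20.2, 21.1 and 19.9 in mutants, with no overlap (log2 fold change -0.19, limma adjusted p = 0.21). *Hexim1*, the inhibitor of P-TEFb, had the largest value, 0.10 (limma adjusted p = 0.767). *Ssb*, which encodes La, a protein that binds the 3′ ends of new polymerase III transcripts, was at 238, 259 and 229.5 FPKM in WT and 221, 205, 223 and 212 in mutants, again with no overlap (log2 fold change -0.17, limma adjusted p = 0.262). *Trove2*, which encodes Ro60, had a log2 fold change of -0.10 (limma adjusted p = 0.543).

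Of 13 subunits of RNA polymerase III, 10 had a negative log2 fold change and none passed the adjusted threshold. At an unadjusted p under 0.05, 3 were lower in mutants, among them *Polr3a* (the largest subunit) and *Polr1c*. By the same rule 8.79% of all genes tested were lower, and 14.9% of all genes had groups that did not overlap. *Polr3a* was at 10.2, 8.72 and 8.19 FPKM in WT and 7.16, 7.28, 7.50 and 6.81 in mutants, with no overlap (log2 fold change -0.31, limma adjusted p = 0.186). *Polr3b* had the smallest value, -0.33 (limma adjusted p = 0.348), and *Polr1d* the largest, 0.06 (limma adjusted p = 0.788). Of 19 initiation factors and regulators, 16 had a negative log2 fold change, where the median over all genes tested was 0.01. At an unadjusted p under 0.05, 6 of the 19 were lower, beside 8.79% of all genes tested. These included 3 subunits of SNAPc, the complex that recognises promoters such as those of *Rpph1* and *Rmrp* (*Snapc1*, *Snapc3* and *Snapc4*), *Tbp*, and the TFIIIC subunits *Gtf3c2* and *Gtf3c3*. *Snapc1* was at 15.3, 13.7 and 13.01 FPKM in WT and 11.5, 11.2, 11.5 and 11.7 in mutants, with no overlap (log2 fold change -0.27, limma adjusted p = 0.178). *Gtf3c3* was at 35.9, 31.1 and 27.5 FPKM in WT and 26.0, 22.8, 25.04 and 23.7 in mutants (log2 fold change -0.36, limma adjusted p = 0.18). Without WT replicate 3, 722 of all 14019 genes tested passed the threshold, and *Gtf3c3* was the 1 gene of these lists that did. *Snapc2* had the largest value, 0.04 (limma adjusted p = 0.775).

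Over the 8 protein lists together, 61 of 78 genes had a negative log2 fold change and 17 (21.8%) were lower at an unadjusted p under 0.05, with 0 higher; none passed the adjusted threshold. Of all genes tested 8.79% were lower and 8.21% higher by the same rule. The median was -0.09, beside 0.01 for all genes tested, and without WT replicate 1 it was -0.037, beside 0.02. The number lower at an unadjusted p under 0.05 was 1 with an equal sum of FPKM and 20 with an equal sum without these RNAs. It was 8 (10.3%) with a block on replicate numbers and 10 to 17 when 1 library was left out. Over all genes tested it was 531 of 14024 with an equal sum and 1548 of 13987 with an equal sum without these RNAs. With the block it was 883 of 13988, and without 1 library it ran from 722 of 13970 to 1841 of 14019. The 8 germ cell markers were in the same direction, all with a negative log2 fold change and 6 lower at an unadjusted p under 0.05. The 5 fetal Leydig cell markers were in the opposite direction, all with a positive log2 fold change (median 0.47) and 4 higher at an unadjusted p under 0.05, and summed to 1596 to 2658 FPKM in WT and 2498 to 3073 in mutants. The part of these cell types in the values of the protein lists was not tested.

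*Malat1* was the steadiest of the 5 RNAs. It lies at chr19:5795690-5802671 on the minus strand and was at 495, 407 and 421 FPKM in WT and 416, 490, 432 and 435 in mutants, a range of 1.22-fold. WT replicate 1 and mutant replicate 2, which were low for *Rpph1*, were the 2 highest. WT testes averaged 441.002 ± 47.3 FPKM (SD, n = 3) and mutants 443 ± 32.6 (SD, n = 4), with a log2 fold change of 0.01 (95% confidence interval -0.21 to 0.23, limma adjusted p = 0.969). Its sign turned negative under 6 of 18 alternatives, with values between -0.07 and 0.10. The pooled SD of 0.12 was above 45.3% of the genes tested. *Zbtb45*, *Srgap2* and *Ets2* had the most similar patterns (r = 0.98 each).

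A single repeat locus lies inside *Malat1*, a B1_Mus1 SINE on the same strand as the gene (chr19:5801969-5802116), and its reads give a measure of *Malat1* from the count table. The element is in capitals, with 20 bases of *Malat1* on each side.
Malat1: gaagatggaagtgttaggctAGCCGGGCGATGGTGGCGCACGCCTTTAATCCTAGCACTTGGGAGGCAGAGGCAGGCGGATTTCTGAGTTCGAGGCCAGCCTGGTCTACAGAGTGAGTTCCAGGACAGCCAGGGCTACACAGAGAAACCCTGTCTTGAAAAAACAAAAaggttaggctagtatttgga
It had 3747, 2086 and 2503 reads in WT replicates 1 to 3 and 1802, 2058, 2400 and 2252 in mutant replicates 1 to 4. As CPM this was 678 ± 108 in WT (SD, n = 3) and 634 ± 102 in mutants (SD, n = 4), with overlapping groups (log2 difference -0.10, p = 0.571 in the exact permutation test). WT replicate 1 was highest in both tables, whereas mutant replicate 2, the second highest by FPKM, had 613 CPM at this locus and lay below the median library.

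*Neat1* was low in these testes, at 2.69, 2.21 and 2.90 FPKM in WT and 1.71, 2.43, 2.25 and 2.53 in mutants. Mutant replicate 1 was the lowest, WT replicate 3 the highest, and the groups overlapped (log2 fold change -0.19, standard error 0.14, limma adjusted p = 0.521). Its row in the gene table covers chr19:5842302-5845478, the short isoform, while the long isoform that builds paraspeckles reaches from 5824708 to 5845480. All 22 repeat loci inside the long isoform lie outside the span of the gene row, and they had 51 to 106 reads per library together. Their sum was 21.7 ± 4.66 CPM in WT (SD, n = 3) and 18.8 ± 3.58 in mutants (SD, n = 4), with a log2 difference of -0.21 (p = 0.4 in the exact permutation test). The part that only the long isoform covers thus gave a difference of the same sign and a similar size as the short row, both within the spread. Within a library, *Malat1* was 145 to 184 times *Neat1* in WT and 172 to 243 times in mutants. *Adss*, *Naa11* and *Fignl1* were the genes most like *Neat1* (r = 0.98, 0.96 and 0.96).

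None of 10 paraspeckle proteins and none of 9 nuclear speckle proteins passed the adjusted threshold or an unadjusted p under 0.05. By the unadjusted rule 8.79% of all genes tested were lower and 8.21% higher. *Nono*, a core paraspeckle protein, was at 224 ± 20.8 FPKM in WT (SD, n = 3) and 234 ± 8.54 in mutants (SD, n = 4), and its log2 fold change of 0.07 was the largest of that list (limma adjusted p = 0.69). *Rbm14* had the smallest, -0.13 (limma adjusted p = 0.596). Among speckle proteins the values ran from -0.15 for *Acin1* (limma adjusted p = 0.503) to 0.08 for *Srsf1*, a splicing factor (limma adjusted p = 0.512).

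All 5 RNAs had overlapping groups, where 14.9% of all genes tested had groups that did not overlap. In the repeat table, 54 loci inside these 8 genes or within 5000 bases of them had a mean of at least 1 read, and none passed the threshold of 0.1 (edgeR), beside 0.0846% of all 464695 loci tested. At an unadjusted p under 0.05 there were 2 of 54, beside 4.79% of all loci. These were a PB1D11 SINE at chr4:43494828-43494917 near *Rmrp* (5 to 24 reads in WT and 12 to 22 in mutants) and an L1MD3 fragment at chr9:78177297-78177593 near *Rn7sk* (8 to 10 reads in WT and 10 to 15 in mutants).

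Of the genes described here next to the other RNAs, none passed the adjusted threshold. *Ccdc107*, head to head with *Rmrp*, was at 37.2 to 42.1 FPKM in WT and 40.5 to 50.5 in mutants (log2 fold change 0.17, limma adjusted p = 0.332). *Frmd8*, on the side of *Neat1* away from *Malat1*, had a log2 fold change of -0.27 (limma adjusted p = 0.18). It was at 11.7 to 13.6 FPKM in WT and 9.98 to 10.7 in mutants, with no overlap. *Sit1* near *Rmrp* and *BC107364* near *Terc* were below the filter, and *Fcgr1* near *Terc* was at 0.528 to 1.46 FPKM.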

How the data were processed

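RNA-Seq data of E14.5 testes from 3 WT and 4 mutant embryos were used, grouped by the sample labels. The authors aligned reads to mm10 with TopHat2 and made FPKM per RefSeq gene with the Cufflinks tools; the deposited FPKM values include that workflow's scaling, and their length correction is large for RNAs near the fragment length of about 275 bp. The authors made the deposited counts of uniquely mapped reads per RepeatMasker element of the LINE, SINE and LTR classes with HTSeq. These counts are not normalized.

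For genes averaging 0.5 FPKM or more, log2(FPKM + 0.5) was fitted in limma 3.58.1 (trend, two-sided, Benjamini-Hochberg, threshold 0.05). Loci averaging 1 read or more were fitted in edgeR 4.0.16 (quasi-likelihood, TMM, threshold 0.1), with DESeq2 1.42.0 as an alternative. A single value was tested by exact permutation (two-sided, 35 assignments). Self-tests ran on simulated data.

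The members and lists were chosen with earlier results of these data known. Named genes were the 8 RNAs; per list, the smallest and largest log2 fold change and any gene past the threshold; the nearest protein-coding gene on each side; the 3 genes of highest Pearson r with each RNA; and *Glis3*. Genes named for an unadjusted p under 0.05, for a high r near *Rpph1* or as copies were added after their values were seen. The separate testes pairs make these biological replicates. Cuffdiff and aligned reads were not analysed here. Some genes that this rule names are not reported here. RNA sequences came from GENCODE M21 and the promoter window from RefSeq.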

Additional observations from a re-analysis of the deposited data

Results flagged for a closer look

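Of 28 values examined in the 4 mutant libraries, 2 had 1 library far from the others. The cutoff was a gap over range above 0.829, the limit of Dixon's test, which flags about 1 in 20 groups of values not chosen beforehand. The RNAs were chosen with the spread of these libraries known, so that rate does not apply, and this is a description and no independent test. Both concern the MMVL30-int locus inside *Rpph1* and both are mutant replicate 2. Its locus reads per 1000000 repeat reads, divided by *Rpph1* FPKM, were 0.0528, with a gap of 0.846 of the range. Its share of all MMVL30-int reads was 41.8%, with a gap of 0.949 of the range. The FPKM of *Rpph1* in the same 4 libraries was not past this limit, since mutant replicate 1 was also low.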

How the results depend on the processing

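Of the 5 RNAs, none passed the adjusted threshold under the 18 alternatives run for genes. Directions turned as follows. *Rpph1* was 0.28 without mutant replicate 2. *Rmrp* was -0.079 and *Terc* -0.042 without WT replicate 1. *Malat1* was -0.066 with quantile normalization, -0.055 with an equal sum of FPKM, -0.058 with an equal sum without the RNAs, -0.045 without WT replicate 2, -0.02 without WT replicate 3 and -0.04 without mutant replicate 2. *Neat1* kept its sign in all of them (-0.28 to -0.09). Leaving out 1 library gave ranges of -1.12 to 0.28 for *Rpph1*, -0.079 to 0.28 for *Rmrp*, -0.042 to 0.28 for *Terc* and -0.045 to 0.096 for *Malat1*. The lowest adjusted p from limma over all alternatives was 0.695 for *Rpph1*, 0.713 for *Rmrp*, 0.208 for *Terc*, 0.674 for *Malat1* and 0.357 for *Neat1*. Quantile normalization gave *Rpph1* and *Rmrp* a fold change and a spread of 0, since they hold the same 2 top ranks in every library. Without 1 library the pooled SD of *Rpph1* was 0.98 to 1.67, that of *Rmrp* 0.17 to 0.33, and the log2 ratio of *Rpph1* to *Rmrp* differed by -1.08 to 0.06 between groups.

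Over all genes, 1 passed the adjusted threshold, against 4 with no filter, 3 with quantile normalization, 47 with an equal sum of FPKM, 2 with an equal sum without the RNAs and 0 with the replicate block (1726 genes of that limma fit at an unadjusted p under 0.05, and 2379 without the block). The range without 1 library was 1 to 722, with 722 without WT replicate 3. Of the genes in the partner lists 0 passed, and 0 to 1 without 1 library. Of 464695 loci 393 passed, against 17 with a mean of at least 10 reads, 217 with the replicate block and 15 with DESeq2, and 139 to 659 without 1 library. Of the 54 loci in or near the RNAs 0 passed, against 1 (the locus in *Rpph1*) with library size only and 0 to 1 without 1 library. The permutation comparison of that locus turned from -1.20 to 0.31 on the log2 scale without mutant replicate 2 (range without 1 library -1.95 to 0.31), and that of the *Malat1* locus from -0.10 to 0.036 without WT replicate 1 and 0.015 without mutant replicate 1 (-0.21 to 0.036 without 1 library). The locus calls were also made with library sizes that leave out the *Rpph1* locus, chosen after seeing the data (430 of 464695). The causes were not tested.

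Same-numbered WT and mutant libraries had correlations of their deviations of 0.198, -0.177 and 0.229 for numbers 1 to 3. Differently numbered libraries were not compared, so these values cannot decide whether the numbers mark pairs. The main fit did not take them as pairs, and with the replicate block no RNA changed its call. Mutant replicate 4 has no WT library of its number, so it adds nothing to the comparison in the block fit. For *Rpph1* the log2 fold change was -0.94 both with the block and without mutant replicate 4. The loci in *Neat1* rest on 51 to 106 reads per library, and the depth behind FPKM is unknown.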

Other observations

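Of 16 other nuclear long RNAs listed, 13 passed the filter and none passed the adjusted threshold (limma), beside 0.00715% of all genes tested. At an unadjusted p under 0.05, 2 were higher and 0 lower in mutants, beside 8.21% higher and 8.79% lower of all genes tested. *Airn*, the imprinted antisense RNA of *Igf2r*, was at 14.8, 16.9 and 17.7 FPKM in WT and 23.6, 25.9, 16.8 and 22.9 in mutants (log2 fold change 0.41, limma adjusted p = 0.214). *Snhg3*, a host of small nucleolar RNAs, was at 81.9, 90.6 and 107 FPKM in WT and 113, 127, 97.5 and 146 in mutants (log2 fold change 0.37, limma adjusted p = 0.25). Both groups overlapped. *Gas5* had the smallest value, -0.19 (limma adjusted p = 0.458).

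The U12 spliceosomal RNA *Rnu12* was at 31.7, 37.6 and 110 FPKM in WT and at 36.2 and 117 in mutant replicates 1 and 3, and was listed at 0 in mutant replicates 2 and 4. The *Rnu12* groups overlapped (log2 fold change -3.17, limma adjusted p = 0.427). *Rnu11* and *Rnu7* were listed at 0 in all libraries. The other 7 small nuclear RNAs listed had no row in the table used here. Zeros of rows as short as those of *Rnu12*, *Rnu11* and *Rnu7* do not give the level of these RNAs.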
